A study of Homo sapiens with 5 samples.

Results

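The cells described are the 10% of recovery cells with the most heat shock transcripts, 346 of the 3462 cells kept in the recovery library and of 14911 kept in the series. Each cell was scored by its summed UMIs (unique transcript tags) of HSPA1A, HSPA1B and DNAJB1 per 10000 UMIs of the cell. The 346 members were set against the 1731 cells in the bottom 50% of the same ranking, called low-score cells here. Cells entered the ranking with 5000 UMIs or more, 1000 genes or more and a mitochondrial share of UMIs no higher than 20%. The values of these 3 genes chose the members, so their levels are a description and they were left out of every other level.

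All cells were MDA-MB-468, a long-established line from a human breast cancer of the triple-negative kind, and single-cell RNA was counted in 5 libraries, 1 per group. The recovery library held cells sampled after 72 h with PF0517515, an inhibitor of acetyl-CoA carboxylase, and a later recovery whose length and medium the labels do not give. The other 4 libraries were 72 h with PF0517515, 6 h with PF0517515, 72 h untreated and untreated cells of the 0 h start. The labels give no dose and no vehicle for the untreated cells. Every library was dissociated with trypsin before loading, and nothing in the labels ties cells to separate cultures, so a group is 1 sample and no test of a group is possible.

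The heat shock response is switched on when unfolded proteins draw chaperones away from the transcription factor HSF1, which then forms trimers and binds heat shock elements, inverted repeats of the letters GAA, in promoters. HSF1 targets include the inducible HSP70 proteins (HSPA1A, HSPA1B and HSPA6), their DNAJ partners, which present substrates, nucleotide exchange factors (BAG3 and HSPH1), the HSP90 proteins and small heat shock proteins such as HSPB1. Cancer cells often depend on these chaperones.

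HSPA1A and HSPA1B lie 1 after the other on chromosome 6 and are near copies. HSPA1A is at 31815464 to 31817946 and HSPA1B at 31827735 to 31830255 on the plus strand (GENCODE 29, GRCh38). Of the 2434 windows of 50 bases in the longest HSPA1A transcript, 72.6% were found unchanged in HSPA1B, but of the 251 windows in the last 300 bases none was. The split between both genes is therefore uncertain for reads outside that end, and reads that match both may not have been counted. DNAJB1 is on the minus strand of chromosome 19 at 14514770 to 14529770.

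The upstream sequences of the 3 score genes and of HSPA6 and HSPB1, HSF1 targets outside the score, are printed because the members are defined by the activity of such genes. They come from RefSeq promoters on GRCh38.p14 and run 5′ to 3′ on the gene's strand, ending where an annotated exon or the transcript start is met. The stretches are chr6:31815293-31815463 (plus strand), chr6:31827488-31827734 (plus), chr19:14518421-14518647 (minus), chr1:161524290-161524539 (plus) and chr7:76302423-76302543 (plus). Capitals mark the heat shock element core, GAANNTTC or TTCNNGAA, and overlapping matches run together.
HSPA1A: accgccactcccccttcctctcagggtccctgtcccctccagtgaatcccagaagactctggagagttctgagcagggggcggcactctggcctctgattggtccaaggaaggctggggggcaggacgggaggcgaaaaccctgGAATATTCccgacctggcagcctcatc
HSPA1B: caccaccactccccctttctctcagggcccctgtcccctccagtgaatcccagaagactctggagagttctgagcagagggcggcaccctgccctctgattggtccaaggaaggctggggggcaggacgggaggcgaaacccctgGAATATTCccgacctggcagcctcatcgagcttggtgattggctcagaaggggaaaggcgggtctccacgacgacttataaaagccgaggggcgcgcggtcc
DNAJB1: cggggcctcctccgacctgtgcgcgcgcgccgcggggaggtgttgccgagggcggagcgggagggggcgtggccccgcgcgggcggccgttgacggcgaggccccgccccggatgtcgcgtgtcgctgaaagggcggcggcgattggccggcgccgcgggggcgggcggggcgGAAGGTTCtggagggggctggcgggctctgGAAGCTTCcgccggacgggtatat
HSPA6: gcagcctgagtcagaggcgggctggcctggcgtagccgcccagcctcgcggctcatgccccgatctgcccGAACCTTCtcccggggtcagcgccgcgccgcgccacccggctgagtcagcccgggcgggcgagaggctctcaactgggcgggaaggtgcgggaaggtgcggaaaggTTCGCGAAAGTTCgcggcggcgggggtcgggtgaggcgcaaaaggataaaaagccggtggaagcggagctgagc
HSPB1: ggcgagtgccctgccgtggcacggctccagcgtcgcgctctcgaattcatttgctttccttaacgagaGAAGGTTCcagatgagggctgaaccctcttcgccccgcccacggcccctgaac
The match starts 106 bases before the RefSeq start in HSPA1A and 105 bases before it in HSPA1B. DNAJB1 has 2 matches in this window, at 77 and 47 bases before the start of one of its RefSeq transcripts, and HSPA6 has 3. The core stood in the 300-base promoters of 19 of the 27 genes of the HSF1-induced list with a RefSeq entry (70.4%), against 4417 of all 27305 genes with one (16.2%). The promoters of BAG3 and HSPH1 held no match in this window. A match is a description of letters and not of binding.

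The score had no gap at its threshold. The lowest member had 28.85 score UMIs per 10000 and the next cell 28.73, and 143 cells lay within 10% of the threshold. The members are thus the upper end of a range of scores. No clusters were made, and whether they hold a separate type was not tested. The median score was 39.2 in members and 6.64 in low-score cells, and the highest was 189.0 in members and 9.81 in low-score cells. HSPA1A stood at 21.9 UMIs per 10000 in members and 2.44 in low-score cells, HSPA1B at 5.49 and 0.7, and DNAJB1 at 15.2 and 3.54. Every member had at least 7 UMIs of HSPA1A, 1 of HSPA1B and 3 of DNAJB1.

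Depth and mitochondrial share were close in both groups. The median was 25212 UMIs in members and 25478 in low-score cells, with 5306.5 and 5555 genes, and the mitochondrial share was 2.6% in members and 2.65% in low-score cells. Cells under 10000 UMIs were 29 of the members (8.38%) and 83 of the low-score cells (4.79%). Across libraries, depth ran from 85535896 to 114396977 UMIs, the deposited barcodes from 2057 to 3736 and the median per kept cell from 26954.5 UMIs in the recovery library to 42464 at 72 h with inhibitor. Pairs of libraries shared 0 to 7 kept barcodes, and 1 member carried a barcode also kept in another library. The 18 genes of the epithelial list, 16 of them measured, summed to 11300 CPM in members and 10400 CPM in low-score cells. None of the 15 markers of blood, endothelial, stromal and other cell types reached 20 CPM in either group, their summed level was 19.2 CPM in members and 17.4 CPM in low-score cells, and 5 of them, among them COL1A2, COL3A1, DCN and HBB, had no UMI in either group.

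Each of the 3 genes was also higher in the top 10% of cells ranked by another of them alone. These values describe how the score genes vary together in the same cells and are no support for the choice. When cells were ranked by HSPA1A alone, DNAJB1 stood at 13.4 UMIs per 10000 in the top 10% and 4.21 in the bottom 50%, a 3.19-fold difference (exact 95% interval 3.11 to 3.26). When cells were ranked by DNAJB1 alone, HSPA1A was 4.8-fold higher (4.7 to 4.9) and HSPA1B 4.51-fold higher (4.32 to 4.69). The same ranking by DNAJB1 gave a 4.32-fold difference of HSPA1A at 72 h with inhibitor, 1.32-fold at 6 h with inhibitor, 1.38-fold at 72 h untreated and 1.49-fold at 0 h untreated. In the other direction, ranking by HSPA1A gave a DNAJB1 fold of 2.01 at 72 h with inhibitor and of 1.09 to 1.31 in the other 3 libraries. The genes are also scarcer there, so a ranking by 1 gene rests on fewer UMIs, and the part of this in the smaller folds was not tested. The score was also taken from a random 50% of each cell's UMIs, with all 3 genes still in the choice. The remaining UMIs then gave 8.17-fold (7.91 to 8.43) for HSPA1A, 7.0-fold (6.59 to 7.43) for HSPA1B and 3.96-fold (3.84 to 4.08) for DNAJB1. All intervals cover counting error only, not the spread between cells or cultures.

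Cells with such scores were rare outside the recovery library. With every cell thinned to 5000 UMIs, the threshold of the members corresponds to 15 score UMIs. It was met by 352 of 3462 recovery cells (10.2%), a share near 10% that the rule itself sets, and by 8 of 1868 cells at 72 h with inhibitor (0.428%, exact binomial 95% interval 0.185 to 0.842). None of 2996 cells at 6 h with inhibitor, 2885 at 72 h untreated and 3700 at 0 h untreated met it, which allows shares of up to 0.1%, 0.104% and 0.0811% when 3 cells are taken as the limit of a count of 0. The upper ends of the exact two-sided 95% intervals are 0.123%, 0.128% and 0.0996%. Without thinning the share was 9.99% in the recovery library and the counts in the other 4 libraries were the same. The median score was 9.81 in recovery cells, 2.61 at 72 h with inhibitor, 1.46 at 6 h with inhibitor, 2.83 at 72 h untreated and 2.09 at 0 h untreated. With 1 library per group this order has no replicate check.

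**Figure D1:**
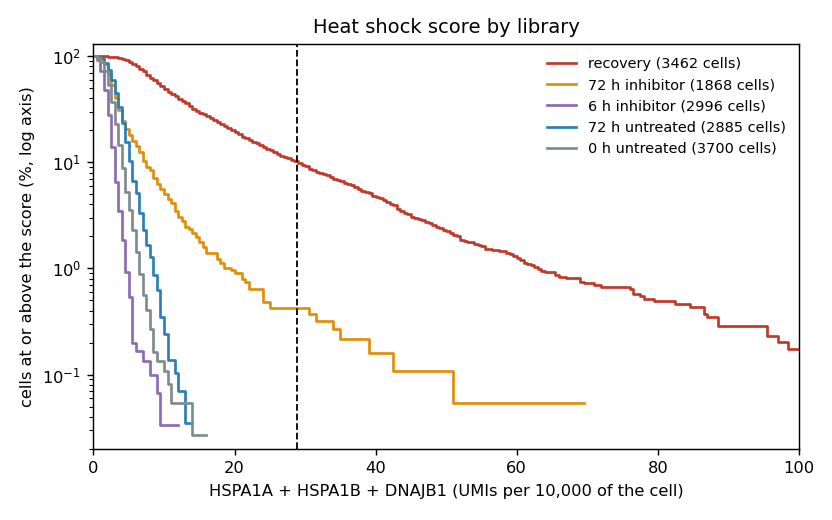
Share of cells (y axis, percent, log scale) at or above each heat shock score (x axis, UMIs per 10000, shown up to 100) in the 5 libraries, 1 line per library, with the threshold of the members as a dashed line. The recovery line meets the threshold near 10%, the 72 h inhibitor line at 0.428%, and the other 3 lines end before it.

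Outside the score, the same contrast was taken for the 6293 genes with at least 20 CPM (UMIs per 1000000, the score genes left out of the total) in members or in low-score cells. Of these, 147 (2.34%) were 1.5-fold or more higher in members and 168 (2.67%) were 1.5-fold or more lower. Of all measured genes 7.23% were higher by 25% or more and 13.3% were lower by the same ratio, and the median log2 ratio of all measured genes was -0.04, with 42% of them higher and 58% lower. Scaling by the median of ratios gave 178 higher and 136 lower genes, and weighting every cell equally gave 211 higher and 129 lower, so the balance of directions depends on the scaling. The ranking used the same cells' RNA, so these counts carry no test.

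The wider set of HSF1-induced genes was higher in members throughout. Of 30 listed genes 24 were measured, all 24 were higher, 20 by 25% or more and 9 by 1.5-fold or more, with a median log2 ratio of 0.43. Of the 24, CRYAB reached 20 CPM in members only. Among all measured genes 7.23% were higher by 25% or more and 2.34% by 1.5-fold or more. Taking the random 50% of UMIs for the score and the remaining UMIs for the levels left 16 of 23 higher by 25% or more. The share of all genes higher by 25% or more was not taken under that setting.

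Among nucleotide exchange factors and cochaperones, BAG3, which couples HSP70 to small heat shock proteins and to selective autophagy, stood at 148 CPM in members and 45.6 CPM in low-score cells, 3.24-fold (3.03 to 3.47). In the other libraries BAG3 was 49.0 against 37.0 CPM at 72 h with inhibitor, 22.7 against 17.0 CPM at 6 h with inhibitor, 33.4 against 26.4 CPM at 72 h untreated and 26.8 against 21.5 CPM at 0 h untreated, top 10% first. Both recovery groups were above their counterparts in each of the other libraries, and the ratio was 1.24 to 1.33 there. HSPH1, an HSP110-type exchange factor, had 288 CPM in members and 151 CPM in low-score cells (1.91-fold, 1.82 to 1.99), and HSPA4, another of that family, was 1.57-fold higher. From the lowest to the highest decile of the score, HSPH1 was also higher in the other libraries. It went from 118 to 157 CPM at 72 h with inhibitor and from 85.9 to 135 CPM at 6 h with inhibitor. Untreated, it went from 89.6 to 145 CPM at 72 h and from 110 to 153 CPM at 0 h. CHORDC1, an HSP90-binding cochaperone, was 1.72-fold higher. STIP1, which hands substrates from HSP70 to HSP90, had a log2 ratio of 0.33, FKBP4 was 1.26-fold higher and AHSA1, the activator of the HSP90 ATPase, 1.22-fold higher.

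Of the chaperones themselves, HSPB1, a small heat shock protein that holds unfolded proteins in solution, had 1130 CPM in members and 554 CPM in low-score cells (2.04-fold, 1.99 to 2.09). It had 565 against 289 CPM at 72 h with inhibitor (1.95-fold), and 679 against 550 CPM at 72 h untreated (1.23-fold). HSP90AA1, the inducible cytosolic HSP90, had 1510 CPM in members and 902 CPM in low-score cells (1.68-fold), while HSP90AB1, the constitutive form, had 2040 and 1610 CPM (1.27-fold). From the lowest to the highest decile of the score, HSP90AA1 went from 688 to 1100 CPM at 72 h with inhibitor and from 1570 to 1940 CPM at 6 h. Untreated, it went from 1220 to 1830 CPM at 72 h and from 1950 to 2310 CPM at 0 h. HSPA8, the constitutive HSP70, had 758 CPM in members and 463 CPM in low-score cells (1.64-fold, 1.59 to 1.68). Its ratio was 1.14 at 72 h with inhibitor, 1.73 at 6 h with inhibitor, 1.59 at 72 h untreated and 1.42 at 0 h untreated. The mitochondrial pair HSPD1 and HSPE1, which share a promoter, were 1.2-fold and 1.32-fold higher, and DNAJA1 was 1.3-fold higher.

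HSPA6 has almost no transcript in unstressed cells, and its promoter is the one with 3 element cores among those printed. It had 170 UMIs over the 346 members and 33 UMIs over the 1731 low-score cells, or 18.5 and 0.678 CPM, a 27.3-fold difference (18.7 to 40.9), below the 20 CPM minimum. The UMIs were spread over 80 members, with at most 6 in 1 cell. By deciles of the score, lowest to highest, its UMIs numbered 2, 4, 12, 6, 9, 13, 23, 33, 87 and 170. The top 10% had 30 UMIs at 72 h with inhibitor, against 18 in the bottom 50%, and 1 or 0 in each of the other 3 libraries. HSPA1L, the neighbour of HSPA1A on the other strand, had 38 UMIs in members and 27 in low-score cells, and DNAJA4 and HSPB8 had 0 in members, against 2 and 3 in low-score cells.

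Ubiquitin genes belong to the response because damaged proteins are tagged for degradation. UBB, a polyubiquitin gene, had 950 CPM in members and 699 CPM in low-score cells (1.36-fold). IER5, an HSF1 target that also feeds back on HSF1, had 374 CPM in members and 173 CPM in low-score cells (2.16-fold, 2.08 to 2.25). HSF1 itself was 24.5 CPM in members and 30.7 CPM in low-score cells, a ratio of 0.797 (0.689 to 0.917).

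In the other libraries the same contrast gave smaller list medians. The HSF1-induced list had a median log2 ratio of 0.22 at 72 h with inhibitor, 0.16 at 6 h with inhibitor, 0.25 at 72 h untreated and 0.25 at 0 h untreated, with 6 of 23, 6 of 21, 9 of 23 and 8 of 22 measured genes higher by 25% or more in that order. The shares of all measured genes higher by 25% or more were 7.68%, 5.05%, 7.5% and 6.92% there. The difference between libraries has no replicate check. The top 10% there had far lower scores, with medians of 10.0, 3.21, 6.03 and 4.58. Of the 147 genes 1.5-fold higher in recovery members, 51, 41, 52 and 45 were also 1.5-fold higher in those libraries, or 34.7%, 27.9%, 35.4% and 30.6% of all 147. Only 106, 108, 108 and 106 of the 147 were measured there, and 2, 0, 5 and 2 were 1.5-fold or more lower. The shared higher genes were 40.8%, 34.5%, 28.9% and 31.0% of the genes called higher there. Background shares of called higher genes were 1.95% at 72 h with inhibitor, 1.76% at 6 h with inhibitor, 2.64% at 72 h untreated and 2.25% at 0 h untreated.

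**Figure D2:**
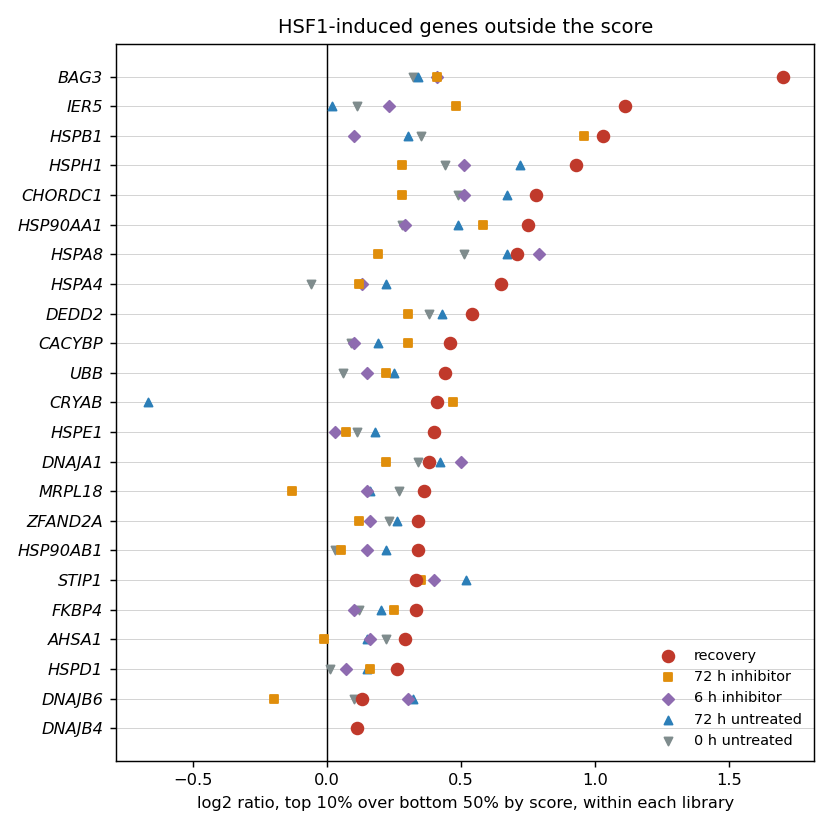
log2 ratio of top 10% over bottom 50% by score (x axis) for 23 of the 24 measured HSF1-induced genes outside the score (y axis), 1 marker per library and only where the gene reached 20 CPM. Recovery (large red circles) lies right of 0 for all 23 genes shown and farthest right for BAG3, whereas HSPA8, CRYAB, DNAJA1, STIP1 and DNAJB6 have a higher ratio in at least 1 other library.

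The other protein quality control lists had smaller medians. Of 20 measured other cytosolic and mitochondrial chaperones 7 were higher and 13 lower (median -0.01), with HSF2, the sister factor of HSF1, highest at 45.4 CPM in members and 31.7 CPM in low-score cells (1.43-fold). The CCT chaperonin and prefoldin list had a median of 0.12 with 12 of 14 genes higher, led by CCT5 at a log2 ratio of 0.32. The proteasome list had 23 of 31 higher with none by 25% or more (median 0.07). Both stand above the 42% of all measured genes that were higher. In the ER list 9 of 21 were higher (median -0.02), and HSPA5, the major ER lumenal HSP70, was the 1 gene higher by 25% or more, at 1130 CPM in members and 760 CPM in low-score cells (1.49-fold, 1.45 to 1.52).

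The stress genes linked to ATF4 and CHOP differed among themselves. DDIT4, an inhibitor of mTORC1 signalling that many stresses induce, had 1430 CPM in members and 421 CPM in low-score cells (3.41-fold, 3.34 to 3.49). DDIT3, which encodes CHOP, had 480 and 407 CPM (1.18-fold, 1.14 to 1.22). DDIT4 was higher in each decile of the score than in the one before, from 351 CPM in decile 1 to 1430 CPM in decile 10, whereas DDIT3 had 343 CPM in decile 1 and 480 CPM in decile 10. PPP1R15A, which reverses the phosphorylation of eIF2, was 2.02-fold higher and CEBPB, a bZIP factor, 1.63-fold higher. The list as a whole was even, with 8 of 16 higher and a median of 0.06. DDIT4 had 445 against 293 CPM in the top 10% and bottom 50% at 72 h with inhibitor (1.52-fold), and ratios of 0.972, 0.827 and 1.24 at 6 h with inhibitor, 72 h untreated and 0 h untreated.

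**Figure D3:**
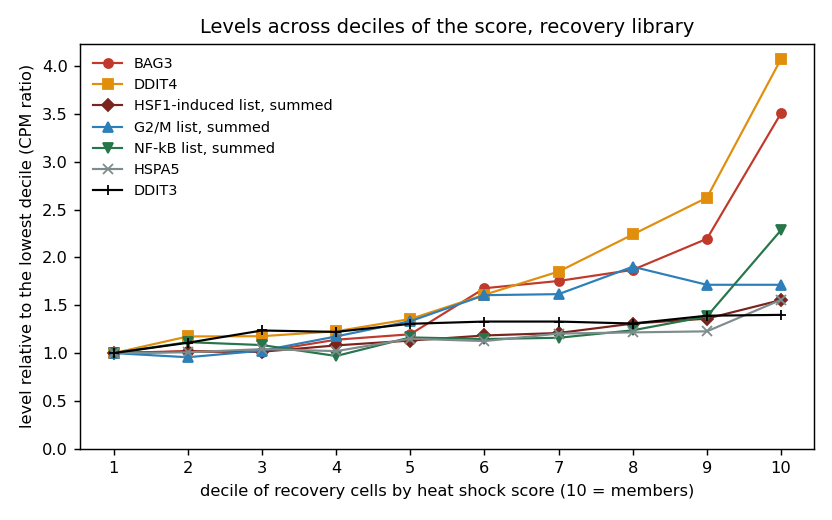
Level relative to the lowest decile (y axis, ratio of CPM) across the 10 deciles of recovery cells by heat shock score (x axis, the members are decile 10). BAG3 and DDIT4 climb through the upper deciles, the summed NF-kB list stands at 726 CPM in decile 9 and 1200 CPM in decile 10, and the G2/M list peaks in decile 8.

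Among genes of at least 20 CPM, inflammatory genes gave the largest ratios, and few cells carried most of their UMIs. NF-kB is a transcription factor that drives cytokines and its own inhibitor NFKBIA. Of the 18 listed NF-kB genes 12 were measured, and 7 of these (TNF, CXCL1, CXCL2, CXCL8, TNFAIP3, CCL20 and NFKB1) reached 20 CPM in members only, so their direction follows from the minimum and the list's count and median are not given. The other 5 were NFKBIA (3.17-fold higher), ICAM1 (1.97-fold), BIRC3 (1.53-fold), RELB (1.39-fold) and TNFAIP2 (1.08-fold). CCL20, a chemokine that attracts lymphocytes and dendritic cells, had 61.1 CPM in members and 2.84 CPM in low-score cells (21.5-fold, 17.9 to 26.1). Only 25 members held a CCL20 UMI, 1 of them held 43.2% of the 562 UMIs and 2 together held more than 50%. The neutrophil chemokines CXCL2, CXCL8 and CXCL1 were 8.49-fold, 7.33-fold and 6.85-fold higher, and TNF was 6.23-fold higher, at 55.3 CPM in members and 8.88 CPM in low-score cells. For TNF, 6 members held 50% or more of the UMIs. When cells were ranked by DNAJB1 alone, the log2 ratio was 2.22 for CCL20, 1.79 for CXCL2, 1.89 for CXCL8, 1.59 for CXCL1 and 1.3 for TNF, against 4.43, 3.09, 2.87, 2.78 and 2.64 by the summed score. By contrast 78 members were needed to reach 50% of the BAG3 UMIs. In the other libraries CCL20 had 0 UMIs in the top 10% and 89 in the bottom 50% at 72 h with inhibitor, 3 and 116 at 6 h with inhibitor, 30 and 148 at 72 h untreated, and 11 and 165 at 0 h untreated.

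The HSF1-induced genes were mostly higher in members with and without cytokine transcripts, and the ratios of the other NF-kB genes differed from gene to gene. At least 1 UMI of CCL20, CXCL1, CXCL2, CXCL3, CXCL8 or TNF was found in 118 members (34.1%) and in 317 low-score cells (18.3%), and 10 or more in 32 members (9.25%) and 40 low-score cells (2.31%). Members with such a UMI had a median of 30202 UMIs and those without 23248.5, and the part of depth was not tested. The libraries hold 1 cell line, so no second cell type gives a background share from free RNA. Among cells without any such UMI, 228 members and 1414 low-score cells, 25 HSF1-induced genes were measured. All were higher in members, 17 by 25% or more and 11 by 1.5-fold or more, with a median of 0.47. HSPA6 (22.3 against 0.611 CPM) and CRYAB (20.8 against 15.2 CPM) reached 20 CPM in members only, so their direction follows from the minimum. Of all 6318 genes measured in these cells 145 were 1.5-fold or more higher. The share of all genes higher by 25% or more was not taken in these cells. BAG3 stood there at 158 CPM in members and 45.9 CPM in low-score cells (3.44-fold, 3.17 to 3.74). Among cells with such a UMI 23 of 24 measured HSF1-induced genes were higher in members, and the median was 0.43. The share of all genes that were higher was not taken in these cells either. DNAJB4 had a ratio of 0.905 (0.715 to 1.14), and CRYAB again reached 20 CPM in members only. BAG3 stood at 132 CPM in members and 44.3 CPM in low-score cells with such a UMI. NFKBIA had 761 CPM in members and 264 CPM in low-score cells with a cytokine UMI (2.89-fold, 2.74 to 3.04), but 89.8 and 68.6 CPM without one (1.31-fold, 1.19 to 1.44). ICAM1, an adhesion molecule, was 1.67-fold higher with and 1.12-fold (0.993 to 1.26) without. BIRC3, an inhibitor of apoptosis, was 1.94-fold higher (1.65 to 2.27) with and had a ratio of 0.763 (0.607 to 0.948) without. Without such a UMI BIRC3 had 16.5 CPM in members and 21.6 CPM in low-score cells. It reached 20 CPM in low-score cells only there, so that direction follows from the minimum. TNFAIP3, which ends NF-kB signalling, was 2.17-fold higher (1.89 to 2.5) with and 2.05-fold (1.62 to 2.57) without, at 17.9 CPM in members and 8.74 CPM in low-score cells. NFKB1, a subunit of NF-kB, was 1.53-fold higher with and 1.34-fold (1.06 to 1.69) without, at 15.9 CPM in members and 11.9 CPM in low-score cells. Without a cytokine UMI, TNFAIP3 and NFKB1 were thus below the 20 CPM minimum in members and in low-score cells. The difference between cells with and without was not tested. This split was chosen after the values were seen.

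**Figure D4:**
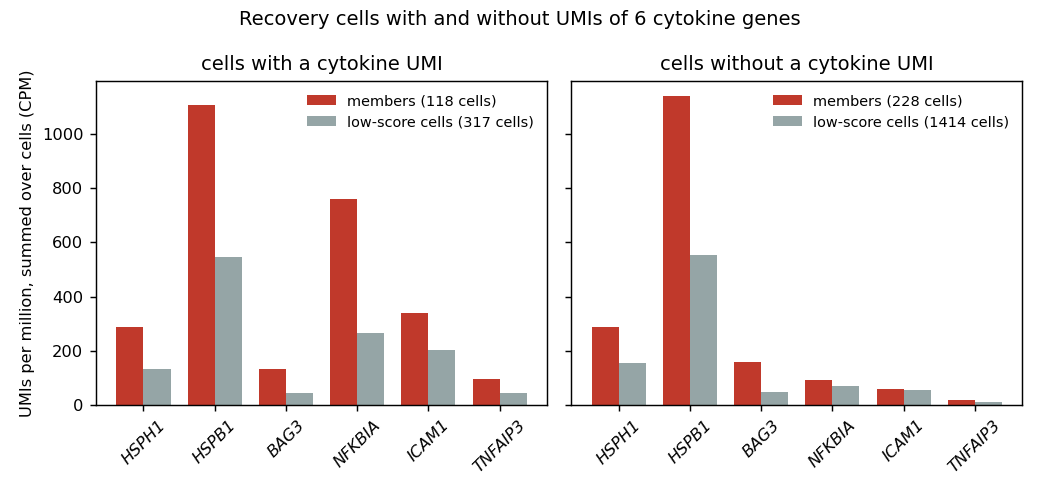
Summed levels (y axis, CPM) of 3 HSF1-induced and 3 NF-kB genes (x axis) in members and low-score cells of the recovery library, for cells with (left) and without (right) a UMI of 6 cytokine genes. HSPH1, HSPB1 and BAG3 are higher in members on both sides, and NFKBIA is at 761 against 264 CPM on the left and 89.8 against 68.6 CPM on the right.

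The immediate early list was even as a whole, with 10 of 17 genes higher and a median of 0.06. ZFP36, which destabilises cytokine mRNAs, had 237 CPM in members and 81.3 CPM in low-score cells (2.92-fold), IER3 2870 and 1140 CPM (2.52-fold) and DUSP1, a MAPK phosphatase, 76.2 and 44.5 CPM (1.71-fold). FOS had 98.9 CPM in members and 110 CPM in low-score cells, EGR1 39.3 and 50.7 CPM, and JUN 524 and 379 CPM (1.38-fold). In the top 10% at 72 h with inhibitor, FOS was 3.85-fold lower (2.95 to 5.12), at 9.03 against 34.7 CPM, and JUN 1.79-fold lower. GADD45B and GADD45G, which bind stress kinases and cell cycle proteins, were 2.45-fold and 2.55-fold higher in members, and TNFRSF10B, a TRAIL receptor, was 1.8-fold lower (1.58 to 2.05). The arrest and apoptosis list had 8 of 15 higher (median 0.15), and 1 of the 15 reached 20 CPM in members only.

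Genes of oxidative and metal stress were mostly even. HMOX1, haem oxygenase, had 62.7 CPM in members and 23.2 CPM in low-score cells (2.7-fold, 2.44 to 2.99), and SQSTM1, an autophagy receptor that partners BAG3-directed degradation, 686 and 448 CPM (1.53-fold). HMOX1 was at 62.3 against 53.6 CPM at 72 h with inhibitor. The oxidative stress and iron list was 12 of 19 higher (median 0.09), and TXNRD1, thioredoxin reductase, was 1.24-fold lower. Of 5 measured genes in the metallothionein list 3 were higher (median 0.04), with SLC30A1, a zinc exporter, at 1.5-fold. ADM, a peptide hormone induced by low oxygen, was 3.4-fold higher at 29 CPM in members and 8.53 CPM in low-score cells, the minimum being met in members only, but the hypoxia and glycolysis list was 8 of 16 higher with a median of 0. In that list 2 genes, ADM among them, reached 20 CPM in members only and 2 in low-score cells only. Their directions follow from the minimum.

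Members also held more G2/M transcripts. All 24 genes of the G2/M list were higher, 20 by 25% or more and 11 by 1.5-fold or more, with a median of 0.56. CDK1, the mitotic kinase, had 324 CPM in members and 132 CPM in low-score cells (2.46-fold), TOP2A, the chromosome-condensing topoisomerase, 391 and 182 CPM (2.15-fold), and UBE2C, a ubiquitin enzyme of mitotic exit, 444 and 220 CPM (2.01-fold). The median was larger in each of the other libraries, at 0.97 at 72 h with inhibitor, 1.15 at 6 h with inhibitor, 1.73 at 72 h untreated and 1.59 at 0 h untreated. In recovery its summed level reached 5250 CPM in decile 8 and stood at 4730 CPM in the members. Among the 1182 recovery cells below the median of both the S and G2/M lists, the G2/M median of top 10% over bottom 50% was 0.05, the HSF1-induced median was 0.47 and the log2 ratio of BAG3 was 1.51. These cells were chosen by low levels of the same G2/M list, which narrows its range, so the small G2/M median is no result. The part of the cell cycle in the heat shock ratios was not tested. The S phase list was 11 of 16 higher with a median of 0.14 in recovery and -0.18, -0.35, -0.45 and -0.51 in the other libraries in the order above. In recovery 1 of the 16 reached 20 CPM in members only.

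Histone genes were singled out after their values were seen. Of 15 measured genes with HIST names 14 were higher in members and 12 by 1.5-fold or more, with a median of 1.04. HIST1H4C had 564 CPM in members and 368 CPM in low-score cells (1.53-fold), HIST1H1C, a linker histone, 263 and 136 CPM (1.93-fold), and HIST1H3G 22.7 and 7.25 CPM (3.13-fold). HIST1H3G is 1 of 5 that reached 20 CPM in members only, so the count and median are not support for a direction. Among cells below the median of both cell cycle lists its log2 ratio was 0.13, against 1.65. Replication-dependent histone mRNAs mostly lack a poly(A) tail, and the kit captures poly(A), so these are levels of tailed transcripts. The median was 0.2 over 7 measured genes at 72 h with inhibitor, -0.01 over 10 at 6 h with inhibitor, -0.53 over 11 at 72 h untreated and -0.43 over 10 at 0 h untreated.

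The inhibitor's target belongs to fatty acid synthesis, and the other lipid lists are given beside that one. The sterol synthesis and uptake list had 14 of 17 lower (median -0.21), beside 58% of all measured genes, with SREBF2, a transcription factor that activates sterol genes, at 87.7 CPM in members and 125 CPM in low-score cells (1.43-fold lower). The median of this list was 0.12 at 72 h with inhibitor, -0.1 at 6 h with inhibitor, 0.05 at 72 h untreated and -0.26 at 0 h untreated. INSIG1, a sterol-sensing retention factor, had 53.9 and 52.8 CPM. The fatty acid synthesis list lay near all measured genes, with 7 of 11 lower (median -0.04), with FASN 1.4-fold lower and SREBF1 1.44-fold higher. The drug's targets had 27.1 CPM in members and 37.2 CPM in low-score cells for ACACA (1.37-fold lower, 1.2 to 1.57), and 3.48 and 3.88 CPM for ACACB, on 32 and 189 UMIs. The lipid droplet and fatty acid oxidation list also had 7 of 11 lower (median -0.12).

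Among the lowest genes, PLEKHG2 had 8.59 CPM in members and 26.4 CPM in low-score cells (3.07-fold lower, 2.45 to 3.91). It reached 20 CPM in low-score cells only, so its direction follows from the minimum. The same holds for any other lower gene that met the minimum in low-score cells only. TMEM104, TOM1L2, TOP3A, CADPS2, GPHN, SELENOM, PEG10, FBXL18, GRK3 and IGF2BP3 were 1.88-fold to 2.14-fold lower. Which of these met the minimum in low-score cells only is not given here, so their ratios carry no result on direction. S100A8, a calprotectin subunit released by stressed epithelium, had 544 CPM in members and 1070 CPM in low-score cells (1.97-fold lower, 1.91 to 2.03), and S100A7, psoriasin, 934 and 1600 CPM (1.71-fold lower). By decile S100A8 had 1160 CPM in decile 1 and 544 CPM in decile 10. Its list of 11 measured genes had 6 higher (median 0.01). NPC1, which exports cholesterol from lysosomes, was 1.73-fold lower in a list of autophagy and lysosome genes with 8 of 15 lower (median -0.09). Of the 168 genes 1.5-fold lower, 38 were also lower by that fold at 72 h with inhibitor (22.6% of them, and 17.4% of the 218 lower there). The numbers were 0 at 6 h with inhibitor, 2 at 72 h untreated and 18 at 0 h untreated. Genes lower by 1.5-fold or more were 3.4%, 0.458%, 0.778% and 3.61% of those measured in these 4 libraries in that order. Of the 168 genes 137, 140, 148 and 122 were measured there.

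Gene length moved with these ratios. With the 6158 measured protein-coding genes in 10 equal groups by genomic span, the median log2 ratio was 0.03 in the shortest group (median span 3424 bases) and -0.21 in the longest (244347 bases). The shortest group held 46 genes 1.5-fold higher and 9 lower, and the longest held 0 higher and 38 lower. At 0 h untreated the longest group had a median of -0.33 with 129 genes lower, and at 72 h with inhibitor, 6 h with inhibitor and 72 h untreated it was -0.14, -0.08 and -0.08. Whether intronic reads were counted is not given in the sources used here, and the part of span in the lower genes was not tested. HSPA1A, HSPB1 and DDIT4 span 2483, 1752 and 2117 bases, whereas BAG3 spans 26450 and HSPH1 27415 bases.

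**Figure D5:**
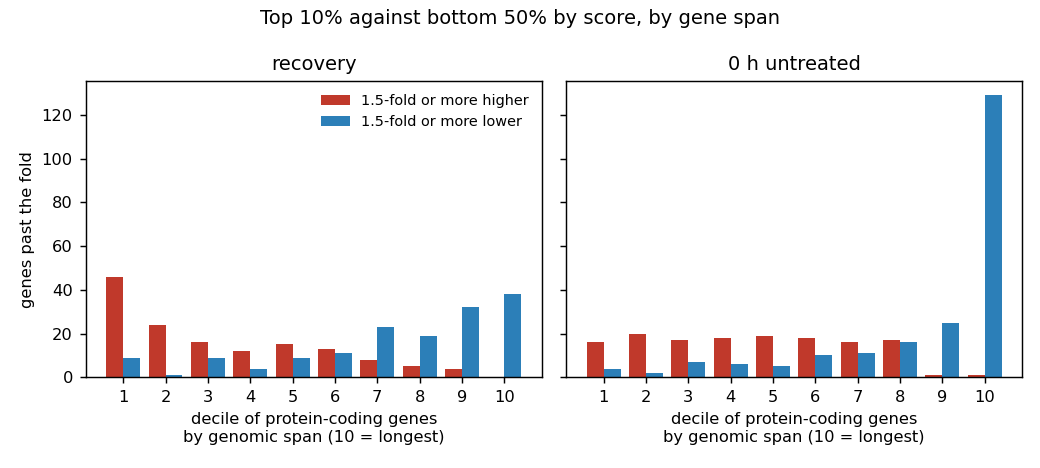
Number of genes 1.5-fold or more higher (red) or lower (blue) in the top 10% than in the bottom 50% by score (y axis), by decile of genomic span of the measured protein-coding genes (x axis), in the recovery library (left) and at 0 h untreated (right). In recovery the higher genes are most frequent among short genes, 46 in the first decile, and the lower genes among long ones, 38 in the last.

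The remaining lists had medians between -0.04 and 0.16. The nuclear-encoded respiratory chain had 20 of 30 higher (median 0.03) and cytosolic ribosomal proteins 10 of 30 higher (median -0.02), with none in either list differing by 25% or more. The mitochondrially encoded genes had 6 of 13 higher (median -0.04), with MT-ND3 1.45-fold lower and MT-ND4L 1.49-fold higher. The interferon list had 3 of 8 higher (median -0.04), with IRF1, also an NF-kB target, 1.8-fold higher (a log2 ratio of -0.01 among cells without a cytokine UMI) and BST2 1.62-fold lower. Epithelial markers had 12 of 16 higher (median 0.16), with KRT6B, a keratin of activated epithelium, 2.2-fold higher but reaching 20 CPM in members only. Its log2 ratio of 1.13 was 0.5 when cells were ranked by DNAJB1 alone and 0.53 among cells without a cytokine UMI, both under 1.5-fold. The list of nuclear RNAs and splicing factors had 12 of 20 higher (median 0.14), with CLK1, a splicing kinase that heat stress regulates, 1.6-fold and SRSF3 1.59-fold higher.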

How the data were processed

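Single-cell RNA was measured in 5 libraries. The deposited values are UMI counts per gene and barcode for 36601 features, made with Cell Ranger 7.1.0 per the file headers and aligned to GRCh38 (per the submitters' processing notes), with an annotation release that is not given in the sources used here. The members and gene lists were chosen with earlier results of these data known. Counts were summed over cells, and CPM used totals without the 3 score genes (Python 3.11.15, scipy 1.17.1). Genes had to reach 20 CPM in at least 1 group. The direction of a gene that reached it in 1 group only follows from this minimum. In recovery 1 gene reached it in low-score cells only in each of these lists: other chaperones, immediate early, lipid droplet, mitochondrially encoded, calprotectin, nuclear RNAs and autophagy. The thresholds were 1.5-fold and, for lists, a level higher by 25%. Ratio intervals are exact 95% Clopper-Pearson intervals conditional on the sum of both counts. They cover counting error only. A sum of 0 was set to 3 counts. There are 26 lists. Doublets were not removed, no clusters were made, and steps were tested on simulated data. The text prints a selection of genes named by a rule: the 12 highest and 12 lowest, all measured HSF1-induced genes, up to 3 of each other list, and ACACA, ACACB, DDIT3, TNF and HSPA5. The 12 highest and lowest exclude clone-style and MT- names. Genes outside the rule (FOS, EGR1, JUN, INSIG1, HSF1, HSPA6, HSPA1L, DNAJA4, HSPB8, ICAM1, BIRC3, RELB, NFKB1, TNFAIP2, TNFAIP3 and histone genes other than HIST1H3G) were chosen after their values were seen. Results were recomputed under 16 other settings, and under 2 more chosen after seeing the data. A few genes of the lists are counted in them but not reported by name here.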

Additional observations from a re-analysis of the deposited data

Results flagged for a closer look

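S100A8 and S100A7 lay on opposite sides in 2 libraries, each past 1.5-fold. In the top 10% at 72 h with inhibitor S100A8 had a log2 ratio of 1.45, at 83.9 CPM against 30.6 CPM in the bottom 50%, and S100A7 of 0.66, at 218 against 138 CPM. In recovery the log2 ratios were -0.98 and -0.78. Each library is 1 sample, so the difference between the libraries was not tested. The top 10% at 72 h with inhibitor also had fewer UMIs per cell, with a median of 28844 against 42364.5 in the bottom 50%, and the part of this was not tested.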

How the results depend on the processing

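The number of genes 1.5-fold or more higher was 147, and it was 92 when cells were ranked by DNAJB1 alone, 97 with a minimum of 50 CPM and 8555 with no minimum. The number lower was 168, and it was 104 with the score on thinned cells, 397 against the bottom 25%, 54 with a minimum of 50 CPM, 2947 with no minimum and 362 among cells low in both cell cycle lists. The number of HSF1-induced genes higher by 25% or more was 20, and it was 13 with the top 20% as members. The share of all genes higher by 25% or more was not taken with the top 20%. The cause of these moves was not tested, apart from the minimum, which by construction changes how many genes enter. The share of higher among called genes was 46.7%, and it was 56.7% with the median of ratios, 62.1% with equal weight per cell and 33.2% when cells were ranked by HSPA1A alone. Over 114 named genes and 18 settings, 1 gene past 1.5-fold turned its direction, IRF1 at -0.01 on the log2 scale when cells with a cytokine UMI were left out of both groups, a setting chosen after seeing the data. CCL20 had a log2 ratio of 2.22 when cells were ranked by DNAJB1 alone, against 4.43. No list whose median was 25% or more from even turned its sign over these settings. No paired analysis was possible because each group has 1 library, and for the same reason no replicate could be left out.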
